A study of Macaca mulatta with 11 samples.

Results

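Stromal cultures grown from the marrow of infant rhesus monkeys were compared with cultures whose titles call them fetal. The 8 cultures were chosen by their titles, 4 infant and 4 fetal, out of 11 in the series, and each was hybridised to 1 array. Infant arrays 1 to 4 stand for donors of 6, 6, 3 and 5 months, whose marrow was aspirated. In the fetal-titled group, arrays 1 and 2 belong to gestation day 120 and arrays 3 and 4 to newborns, so that it holds 2 stages of 2 arrays each. Marrow of both of these stages was flushed from long bones. Age and the way of collection therefore cannot be told apart between the groups. The other 3 arrays, from adults aged 7, 7 and 8 years whose marrow was aspirated, entered the fit to steady the estimate of spread, and their levels are given beside the stages below. All cultures were plated from the mononuclear fraction in the same serum-containing medium, freed of non-adherent cells and collected at passage 2 before confluence. The animals carry no stated allele, transgene or treatment. No label says whether each culture came from a different animal, so p-values measure the spread between these cultures.

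Marrow stromal cells are the adherent, spindle-shaped cells that support blood formation and can give rise to bone, cartilage and fat cells. In culture they lay down collagen-rich matrix, carry actin stress fibres and respond within minutes to serum or handling by switching on immediate early genes such as FOS and EGR1. Stromal cells of fetal marrow are known for fast division, and long bones at that age are still being built from cartilage. The arrays carry human probes, so levels also depend on the fit between human probe and monkey transcript, and 1 gene's level is not set against another's here. Each value is the log2 of the deposited intensity of a probe set, the group of probes that reads a transcript, and each difference is the infant mean minus the fetal mean on that scale. In bulk RNA, fewer cells of a type and less RNA per cell cannot be told apart.

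The 8 arrays were alike in total brightness, with median intensities between 164.9 and 168.7, and 0 pairs of arrays held identical values. Correlations on the log2 scale lay between 0.945 and 0.964 among infant arrays, between 0.963 and 0.983 among fetal arrays, and between 0.947 and 0.974 across the groups. Infant arrays 1 and 2 stood apart on the first principal component of the 8 arrays, at 31.2 and 18 against -9.5 to -5.7 for the other 6, and that component held 27.7% of the variance. On the second, with 21.2%, infant array 4 and fetal array 4 lay at -23.7 and -12.6, whereas fetal arrays 1 to 3 lay between 9.2 and 18.1. Several list counts moved without infant arrays 1 and 2 or without fetal array 4, and the values without them are given below. The number of arrays limits the precision.

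The cultures carried stromal transcripts at both ages. ENG, CD44 and THY1, surface proteins used to define mesenchymal stromal cells, averaged 9.03 ± 0.31, 9.49 ± 0.09 and 8.16 ± 0.42 in infant arrays and 9.09 ± 0.13, 9.69 ± 0.24 and 8.37 ± 0.08 in fetal arrays (SD, n = 4 each). NT5E, the ecto-nucleotidase CD73, read 7.05 ± 0.03 in infant and 6.93 ± 0.16 in fetal arrays (SD, n = 4 each). The median of all log2 values was 7.38, above both NT5E means, and a difference in so dim a probe set may go unseen. Of 18 measured stromal surface markers 11 were higher and 7 lower in infant arrays, with a median difference of 0.03. Differences in this list ran from -0.79 to 0.54. The groups did not overlap for 1 marker, lower in infant arrays, as for 2.32% of all genes in that direction. The most different by p was B2M, the light chain of class I histocompatibility molecules, at 12.87, 13.25, 12.65 and 13.36 in infant arrays against 12.74, 12.20, 12.25 and 12.77 in fetal arrays. Its difference of 0.54 (SE 0.17) came with an overlap of the groups and did not pass (limma adjusted p = 0.559).

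Markers of other cells that marrow can hold were checked at both ages. PTPRC, the common antigen of leukocytes, read between 7.14 and 7.89 in infant arrays and between 7.72 and 7.93 in fetal arrays. CD14, a monocyte receptor, averaged 7.10 ± 0.33 in infant and 7.27 ± 0.25 in fetal arrays (SD, n = 4 each). Neither difference passed (limma adjusted p = 0.856 and 0.900). Of 21 macrophage and leukocyte markers 9 were higher and 12 lower in infant arrays (median difference -0.01), and the mean deviation of that list lay between -0.08 and 0.08 in infant and between -0.03 and 0.05 in fetal arrays. FCER1G, a signalling chain of Fc receptors in myeloid cells, was an exception in size, at 8.73, 9.0, 8.53 and 8.86 in infant arrays against 7.97, 8.53, 8.08 and 7.70 in fetal arrays, with infant array 3 and fetal array 2 level. CD163, a scavenger receptor of macrophages, went the other way by -0.30 (SE 0.10). Erythroid markers were higher in 7 of 12 cases and lower in 5 (median 0.02), and endothelial markers higher in 12 of 15 and lower in 3 (median 0.05). Skeletal muscle markers were higher in 9 of 20 cases (median -0.05), plasma cell and immunoglobulin markers in 4 of 12 (median -0.06) and neural and glial markers in 1 of 12 (median -0.10). The neural and glial count without infant arrays 1 and 2 was 5 of 12 (median -0.02), and the erythroid count 5 of 12 (median -0.05). No marker of these lists passed the test over all genes.

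The comparison of infant with fetal-titled cultures sets marrow stromal transcriptomes at 3 to 6 months against those at gestation day 120 and in newborns. CHI3L1, FERMT2, CD99 and FOS had the smallest p among genes whose arrays did not overlap and that were higher in infant arrays, and GATA6, FZD2, MICAL2 and STX1A among those lower. None of the 22215 probe sets passed an adjusted p of 0.05 in limma, which is 0% of them, so all differences below are given as values and not as calls. At an unadjusted p under 0.05 stood 1527 probe sets or 6.87%, of which 517 (2.33%) were higher and 1010 (4.55%) lower in infant arrays. No overlap between infant and fetal arrays was found in 742 probe sets (3.34%), with 268 (1.21%) higher and 474 (2.13%) lower in infant arrays.

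CHI3L1 encodes a secreted chitinase-like glycoprotein that cartilage cells and macrophages make. It read 10.90, 11.44, 10.89 and 10.89 in infant arrays 1 to 4, against 9.16, 9.77, 9.83 and 10.01 in fetal arrays 1 to 4. All 4 infant arrays lay above all 4 fetal arrays, and infant array 2 was the highest. The difference of 1.33 (SE 0.18), a 2.52-fold higher intensity, came closest to the threshold of all probe sets (limma adjusted p = 0.0556). A dimmer probe set of the gene averaged 9.79 in infant and 8.02 in fetal arrays, also without overlap (difference 1.77, SE 0.32). The remaining probe set read 7.97 in infant and 7.92 in fetal arrays. Over the arrays left out in turn the difference of the brightest probe set lay between 1.16 and 1.44. Without infant array 3 it was 1.38 (limma adjusted p = 0.0467), and without fetal array 4 it was 1.44 (limma adjusted p = 0.0132), and it did not pass with any other array left out. Against the newborn arrays only it was 1.11 (limma adjusted p = 0.546).

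Other secreted or matrix-modifying products were higher in infant arrays beside CHI3L1. PTGDS, which makes prostaglandin D2 and is secreted as a lipid carrier, had the largest difference of the named genes. It read 11.72, 11.58, 10.14 and 11.99 in infant arrays, against 8.76, 9.17, 9.34 and 10.27 in fetal arrays. Infant array 3 lay within the fetal range, and the difference was 1.98 (SE 0.38, limma adjusted p = 0.197), a 3.94-fold higher intensity. It passed without infant array 3, at 2.38 (limma adjusted p = 0.0306), and without fetal array 4, at 2.27 (limma adjusted p = 0.0345). Its 2 dimmer probe sets were higher by 1.07 and 0.90. Each probe set of PTGDS is of a kind whose probes can also match related transcripts, so the dimmer sets are no independent check.

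SULF1, an enzyme that removes sulfate groups from heparan sulfate outside the cell, read 9.0, 9.08, 8.91 and 8.28 in infant arrays, against 7.68, 7.66, 7.62 and 8.39 in fetal arrays. Fetal array 4 lay above infant array 4, and fetal arrays 1 to 3 lay below every infant array. Its difference was 0.98 (SE 0.21), and without fetal array 4 it was 1.17 (limma adjusted p = 0.0386). The other, dimmer probe sets of SULF1 differed by 0.73 and -0.07. ITIH3, a heavy chain of a protease inhibitor family that binds hyaluronan, was at 8.14, 8.32, 8.35 and 9.43 in infant and at 7.42, 7.50, 7.67 and 7.57 in fetal arrays. The groups did not overlap, and infant array 4 stood above the other infant arrays. MMP14, a membrane-bound metalloproteinase that cuts collagen, was higher by 0.53 (SE 0.12) by the probe set that did not overlap, at 9.62 to 10.09 in infant and 9.25 to 9.51 in fetal arrays. Of its other 3 probe sets the differences were 0.44, 0.16 and 0.09.

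DCN, the collagen-binding proteoglycan decorin, read 14.02, 14.27, 13.16 and 13.90 in infant arrays, against 12.74, 12.71, 12.68 and 13.50 in fetal arrays, and fetal array 4 lay above infant array 3. The difference was 0.93 (SE 0.26), and its 3 other probe sets were higher by 1.06, 0.88 and 0.23. VCAN, the large proteoglycan versican, was higher by 0.46 (SE 0.15) and higher in infant arrays by all 4 of its other probe sets, which differed by 0.18 to 0.80. Of 14 measured chitinase-like and other secreted stromal glycoproteins, 9 were higher and 5 lower in infant arrays, with a median of 0.26. That compares with 45.4% of genes higher and 54.6% lower over all 11963 genes, each read by its brightest probe set, where the median was -0.02. In that list 5 members reached an unadjusted p under 0.05, all of them higher, where 2.23% of all genes were higher and 5.37% lower at that p. The list was picked knowing CHI3L1, PTGDS and SULF1, so its count is no independent support.

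**Figure D1:**
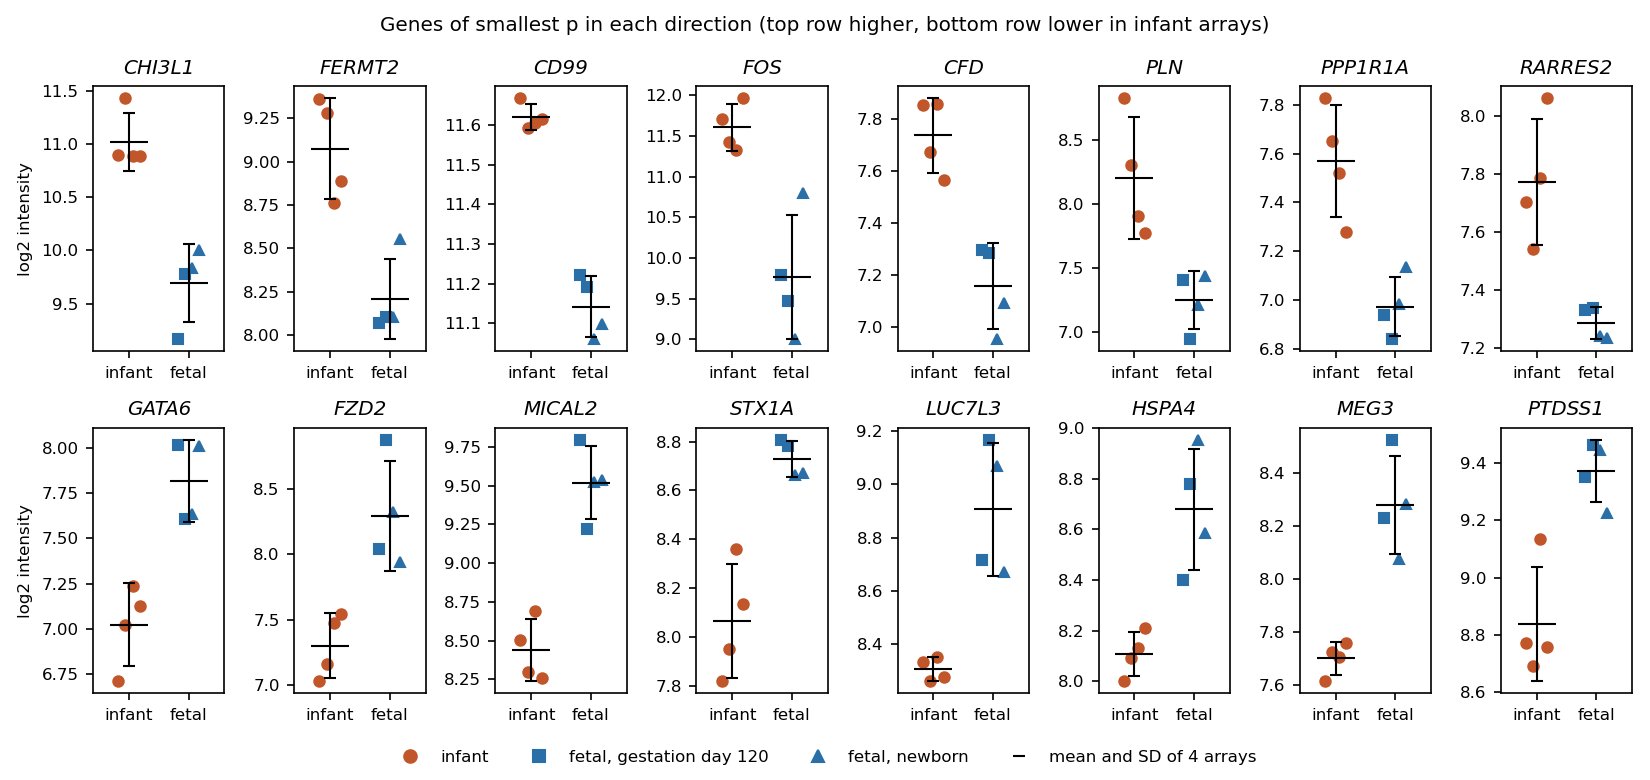
Log2 intensity in each array for the 8 genes with the smallest p, higher and lower, among genes whose groups do not overlap, infant left of fetal, with the mean and SD of 4 arrays. CHI3L1 lies between 10.89 and 11.44 in infant and between 9.16 and 10.01 in fetal arrays, and MICAL2 between 8.26 and 8.69 in infant and between 9.22 and 9.79 in fetal arrays.

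FERMT2 encodes kindlin-2, which activates integrins at focal adhesions. It read 9.36, 9.28, 8.76 and 8.89 in infant arrays, against 8.07, 8.10, 8.10 and 8.55 in fetal arrays (difference 0.87, SE 0.15, limma adjusted p = 0.197). Its brighter probe set differed by 0.57 with overlap, since fetal array 4 read 10.80 and infant array 3 read 10.76. Without fetal array 4 the separated probe set passed at 0.98 (limma adjusted p = 0.0236). CD99, a surface glycoprotein, showed the tightest groups, at 11.59 to 11.67 in infant and 11.06 to 11.22 in fetal arrays. Its difference was 0.48 (SE 0.09), and its other probe set was higher by 0.33 without overlap.

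CFD, a serine protease of the complement system that fat cells secrete, averaged 7.74 ± 0.14 in infant and 7.16 ± 0.17 in fetal arrays (SD, n = 4 each). PLN, the phospholamban that restrains the calcium pump of muscle cells, read 8.83, 8.31, 7.91 and 7.78 in infant arrays, against 7.41, 6.95, 7.22 and 7.44 in fetal arrays. RARRES2, which encodes the chemoattractant chemerin, was higher by 0.49, PPP1R1A, an inhibitor of protein phosphatase 1, by 0.60, the autophagy receptor gene OPTN by 0.58 and the exchange factor gene CYTH1 by 0.39. GAS1, a membrane protein of growth-arrested cells that binds hedgehog ligands, lay at 9.50, 9.61, 8.98 and 9.21 in infant arrays, against 7.63, 8.13, 8.38 and 8.60 in fetal arrays. Its groups did not overlap, and the difference was 1.14 (SE 0.31, limma adjusted p = 0.497). DKK3, a secreted relative of WNT antagonists, was higher by 0.70 (SE 0.20) without overlap. Other probe sets of DKK3 differed by 0.94, 0.30, -0.06 and -0.06.

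Genes lower in infant arrays included regulators of development and of the cytoskeleton. GATA6, a zinc finger transcription factor of mesodermal and endodermal tissues, read 6.71, 7.02, 7.24 and 7.13 in infant arrays, against 8.02, 7.61, 7.63 and 8.01 in fetal arrays. The 4 infant values were under 7.38, the median over all probe sets, and the 4 fetal values over it. The difference was -0.79 (SE 0.13, limma adjusted p = 0.197). FZD2, a receptor for WNT ligands, read 7.03, 7.17, 7.47 and 7.54 in infant arrays, against 8.04, 8.87, 8.32 and 7.94 in fetal arrays (difference -0.99, SE 0.18). Without fetal array 4 its difference of -1.11 passed (limma adjusted p = 0.0382). MICAL2, an enzyme that oxidises actin, was at 8.50, 8.29, 8.69 and 8.26 in infant and at 9.79, 9.22, 9.52 and 9.53 in fetal arrays. Its difference was -1.08 (SE 0.20), a second probe set was lower by 0.41 (SE 0.11) without overlap, and its dimmest one was higher by 0.12.

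EMILIN1, a glycoprotein of elastic fibres, had the largest negative difference of the named genes without overlap. It read 7.83, 8.54, 8.93 and 9.21 in infant arrays, against 9.84, 9.92, 9.74 and 9.51 in fetal arrays (difference -1.13, SE 0.24). Infant array 1 was the lowest of the 8. MEG3, an imprinted noncoding RNA expressed from the maternal allele, read 7.61 to 7.76 in infant and 8.08 to 8.52 in fetal arrays (difference -0.58, SE 0.12), and its other, dimmer probe set was higher by 0.12. IGF2BP3, an RNA-binding protein of fetal tissues, differed by -0.60 (SE 0.13), with its 2 other probe sets at -0.07 and -0.13. CXCL14, a chemokine, read 6.94 to 7.16 in infant and 7.28 to 8.06 in fetal arrays, where fetal array 4 was the lowest of the 4. STX1A, a membrane fusion protein, was lower by a log2 difference of -0.67, the splicing factor gene LUC7L3 by -0.60, the chaperone gene HSPA4 by -0.57, PTDSS1, a phosphatidylserine synthase, by -0.53 and LONP1, a mitochondrial protease, by -0.48. HSPA4 had 3 other probe sets, all dimmer, at 0.04, -0.14 and 0.06.

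Immediate early genes, the transcription factors and feedback proteins that growth signals or stress induce within minutes, were mostly higher in infant arrays and differed widely among arrays. Of 28 measured members 20 were higher and 8 lower, with a median difference of 0.20, where 45.4% of all genes were higher. An unadjusted p under 0.05 was reached by 6 in the higher and 2 in the lower direction, where 2.23% of all genes were higher and 5.37% lower at that p. Without infant arrays 1 and 2, 22 of 28 were higher and the median was 0.38. FOS, a subunit of the AP-1 factor, read 11.71, 11.43, 11.33 and 11.97 in infant arrays, against 9.80, 9.47, 9.0 and 10.79 in fetal arrays. The groups did not overlap, the difference was 1.84 (SE 0.34, limma adjusted p = 0.197), a 3.59-fold higher intensity, and fetal array 4 lay nearest to the infant arrays.

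JUN, the partner of FOS, read 10.02, 10.10, 10.17 and 9.93 in infant arrays, against 8.62, 9.49, 8.98 and 9.10 in fetal arrays (difference 1.01, SE 0.30). Its brightest probe set is of a kind whose probes can also match related transcripts, but its 3 other probe sets were higher by 0.38, 0.41 and 0.32. EGR1, a zinc finger factor of the same response, was at 10.93, 11.44, 11.64 and 11.30 in infant and at 9.66, 10.04, 9.75 and 10.97 in fetal arrays. Fetal array 4 lay above infant array 1, the difference was 1.22 (SE 0.30), and a dimmer probe set of EGR1 differed by 0.02.

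Not every member of the FOS, JUN and EGR families was higher. FOSL2, a relative of FOS, read 7.36, 8.14, 8.17 and 7.80 in infant arrays, against 8.17, 8.25, 9.11 and 9.30 in fetal arrays. It was lower in infant arrays by all of its probe sets, at -0.84, -0.31 and -0.26, and its brightest set did not overlap. FOSL1, whose product also pairs with JUN, lay at 8.17 to 8.65 in infant and 8.70 to 9.06 in fetal arrays (difference -0.46, SE 0.13). The members FOSB and JUNB were higher by 0.68 (SE 0.43) and 0.54 (SE 0.34), JUND by 0.19 and EGR3 stood at -0.05. JUND stood at -0.12 against the newborn arrays alone, and EGR3 turned to between 0.03 and 0.06 in 5 alternatives.

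Fetal array 4, from a newborn, departed from fetal arrays 1 to 3 across this list. It was the highest of all 8 arrays for 13 of the 28 genes. FOSB read 7.32, 8.01, 8.83 and 9.66 in infant arrays, against 7.50, 7.31, 7.30 and 8.98 in fetal arrays, and JUNB read 8.60, 8.84, 9.46 and 9.51 in infant arrays, against 8.21, 8.01, 8.17 and 9.87 in fetal arrays. The infant arrays were also divided, with array 1 and 2 below array 3 and 4 for both genes. The same division was wider for NR4A2, an orphan nuclear receptor chosen after its values were seen, at 7.48, 7.73, 9.86 and 10.11 in infant arrays, against 7.66, 7.93, 7.82 and 10.80 in fetal arrays.

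The mean deviation of the list from each gene's mean over the 8 arrays summarises this pattern. It was -0.17, 0.07, 0.36 and 0.36 in infant arrays 1 to 4, against -0.39, -0.40, -0.44 and 0.61 in fetal arrays 1 to 4. Without fetal array 4, 25 of 28 members were higher and 3 lower, with a median of 0.44, and 15 reached an unadjusted p under 0.05 in the higher direction, as did 271 of all 11963 genes. FOS then differed by 2.19 (limma adjusted p = 0.0132), and NR4A3 and DUSP1, a nuclear receptor and a phosphatase that switches off MAP kinases, both chosen after their values were seen, by 1.24 (limma adjusted p = 0.0050) and 1.14 (limma adjusted p = 0.0345). With the array in, NR4A3 and DUSP1 differed by 0.78 and 0.75 (limma adjusted p = 0.686 and 0.666). The related list of stress-activated feedback proteins and MAP kinase phosphatases had 8 of 15 members higher and a median of 0.01.

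**Figure D2:**
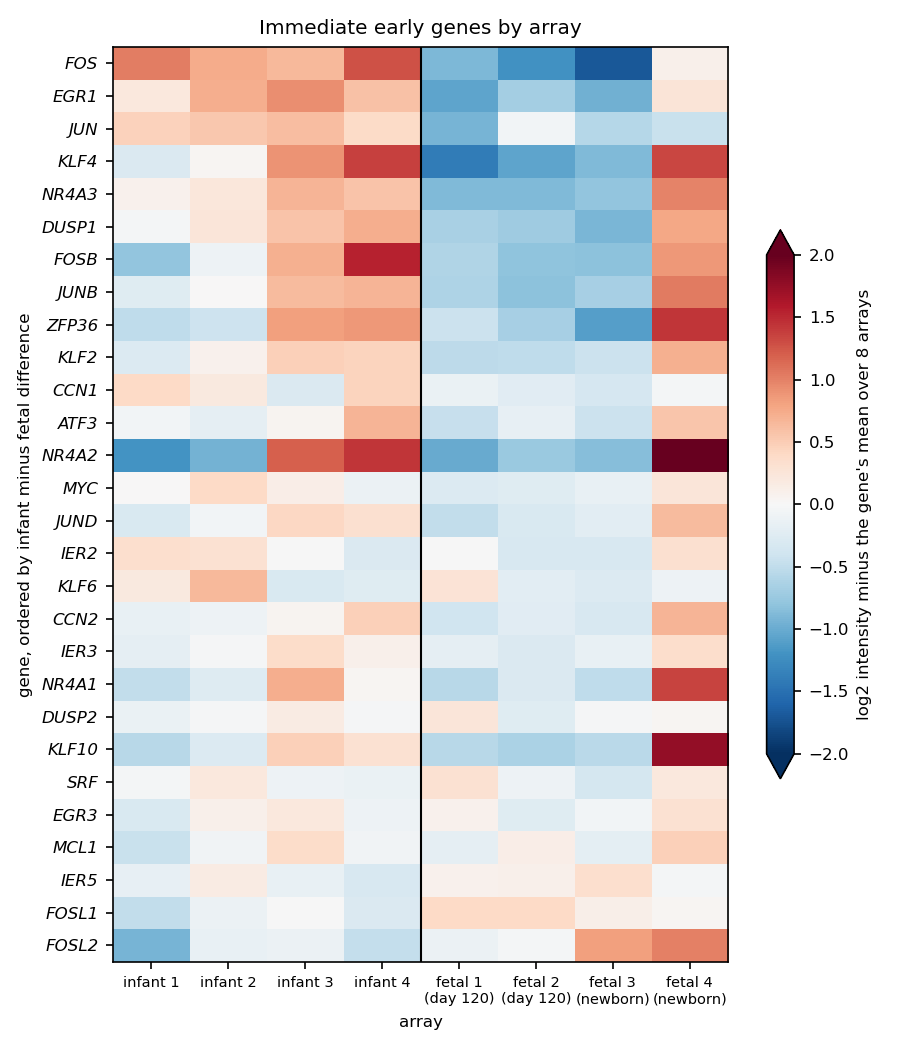
Each row is an immediate early gene and each column an array, infant left of fetal, and the colour gives the log2 intensity minus the gene's mean over the 8 arrays. Fetal arrays 1 to 3 are below the mean for most genes, whereas fetal array 4 is the highest of 8 arrays for 13 of the 28 genes, and FOS and JUN are higher in all 4 infant arrays than in any fetal array.

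Genes of the contractile apparatus, which stromal cells share with smooth muscle, were higher in infant arrays in 14 of 21 cases and lower in 7, with a median of 0.20, where 45.4% of all genes were higher. At an unadjusted p under 0.05 there were 7, all higher, where 2.23% of all genes were higher and 5.37% lower. Without infant arrays 1 and 2 the median was 0.07, with 13 of 21 higher and 2 at that p, and without infant array 2 alone it was 0.09. Against the newborn arrays only it was 0.10, with 11 of 21 higher and 0 at that p in limma. MYLK, the kinase that switches on myosin, read 9.78, 10.06, 9.17 and 10.56 in infant arrays, against 8.76, 8.28, 8.56 and 9.62 in fetal arrays (difference 1.09, SE 0.30). Fetal array 4 again lay inside the infant range. TAGLN, the actin-binding transgelin, was bright, at 13.96, 13.99, 13.90 and 14.04 in infant arrays, against 13.15, 13.47, 13.36 and 14.14 in fetal arrays. Its difference was 0.44 (SE 0.16), and without fetal array 4 it was 0.65 (limma adjusted p = 0.0345). ACTA2, smooth muscle actin, and CALD1, caldesmon, were higher by 0.74 and 0.47, whereas VCL, vinculin, and ACTG2, another smooth muscle actin, stood at -0.26 and -0.25. The mean deviation of the list was between -0.03 and 0.22 in infant arrays, against -0.38, -0.10, -0.11 and 0.21 in fetal arrays 1 to 4.

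Collagen chains went the other way. Of 20 measured chains 6 were higher and 14 lower in infant arrays, with a median of -0.24, where 54.6% of all genes were lower. At an unadjusted p under 0.05 there were 5, all lower, where 5.37% of all genes were lower and 2.23% higher. COL6A2, a chain of the microfibrillar collagen VI, read 9.12, 9.72, 9.41 and 10.35 in infant arrays, against 10.73, 10.39, 10.16 and 10.63 in fetal arrays (difference -0.83, SE 0.22). A dimmer probe set of COL6A2 stood at -0.12. COL6A1, another chain of that collagen, differed by -0.55 (SE 0.17), and of its 7 other probe sets 3 were lower and 4 higher, between -0.33 and 0.19. COL16A1, a chain of a fibril-associated collagen, was at 9.21, 9.44, 10.23 and 10.33 in infant and at 10.52, 10.97, 10.41 and 10.72 in fetal arrays, without overlap.

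The chains of the main bone collagen, COL1A1 and COL1A2, averaged 14.46 and 14.11 in infant and 14.75 and 14.25 in fetal arrays and stood at differences of -0.28 and -0.15. COL6A3, the remaining measured chain of collagen VI, stood at 0.09. Without fetal array 4, 12 of 20 chains were lower and the median was -0.06, and without infant arrays 1 and 2 it was 11 chains and -0.09. The mean deviation of the collagen list was -0.35 and -0.25 in infant arrays 1 and 2 and 0.44 in fetal array 4, and the other 5 arrays ranged between -0.09 and 0.15. LAMB1, a laminin chain of basement membranes, was lower by a log2 difference of -0.48 without overlap, and its other probe set by -0.58.

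Oncofetal and imprinted growth genes were lower in infant arrays in 12 of 18 cases, where 54.6% of all genes were lower. The list's median was -0.13. Besides MEG3 and IGF2BP3, HMGA2, a chromatin protein of embryonic cells, averaged 7.53 ± 0.41 in infant and 8.49 ± 0.87 in fetal arrays (SD, n = 4 each). SGCE, an imprinted sarcoglycan gene, went the opposite way at 9.14, 9.44, 8.86 and 8.70 in infant arrays, against 8.17, 8.50, 8.54 and 8.54 in fetal arrays. HOX genes, which keep positional identity along the body and limbs, were lower in 15 of 20 cases with a median of -0.05, and most were dim. HOXD11, a gene of the distal limb, read 7.55 to 7.64 in infant and 7.71 to 7.94 in fetal arrays, and HOXD4 differed by -0.24, both without overlap. TWIST1, a mesenchymal transcription factor, was at 7.89 to 8.69 in infant and 8.73 to 9.07 in fetal arrays. Of 28 limb and mesenchymal transcription factors 13 were higher and 15 lower.

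Enzymes of sterol and fatty acid synthesis formed the most one-sided list, with 21 of 22 measured members lower in infant arrays and a median of -0.19, where 54.6% of all genes were lower. Of these, 8 reached an unadjusted p under 0.05, where 5.37% of all genes were lower at that p. ACLY, which supplies acetyl-CoA for both pathways, read 9.34, 9.59, 9.61 and 9.90 in infant arrays, against 10.00, 10.15, 10.06 and 10.27 in fetal arrays. The groups did not overlap, the difference was -0.51 (SE 0.14, limma adjusted p = 0.497), and its 2 other probe sets stood at -0.24 and -0.04. ELOVL6, which lengthens fatty acids, was at 7.60, 7.56, 7.41 and 7.51 in infant and at 8.50, 8.41, 8.09 and 7.42 in fetal arrays. NSDHL, an enzyme of late cholesterol synthesis, was at 7.83, 7.77, 7.67 and 7.54 in infant and at 8.65, 8.49, 8.50 and 7.65 in fetal arrays. For both, fetal array 4 lay within the infant range and fetal arrays 1 to 3 above it. Dimmer probe sets of ELOVL6 and NSDHL stood at -0.08 and -0.09.

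Without fetal array 4, ELOVL6 and NSDHL passed at -0.82 and -0.84 (limma adjusted p = 0.0236 for both). FASN and SCD, the fatty acid synthase and a desaturase, were lower by log2 differences of -0.48 and -0.57, and HMGCS1, the enzyme at the entry to the sterol pathway, was the 1 member above 0, at 0.05. The mean deviation of this list did not overlap between the groups. It lay between -0.23 and -0.02 in infant arrays, against 0.16 in each of fetal arrays 1 to 3 and 0.01 in the remaining fetal array. Under quantile normalization 20 of 22 were lower, and without infant arrays 1 and 2 the count was 21.

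Genes of the heat shock and unfolded protein responses were lower in infant arrays in 24 of 28 cases, with a median of -0.14. Under quantile normalization 20 were lower. HSPA4, HSPH1 and HSPD1, cytosolic and mitochondrial chaperones, were lower by log2 differences of -0.57, -0.32 and -0.37, and CALR, a chaperone of the endoplasmic reticulum, by -0.48. A dimmer probe set of HSPH1 was higher by 0.09. HERPUD1, which endoplasmic reticulum stress induces, was higher, at 9.46, 9.37, 9.28 and 9.62 in infant arrays against 8.95, 8.89, 9.14 and 9.29 in fetal arrays, where fetal array 4 lay just above infant array 3. ATF4, a transcription factor of the stress response, stood at 0.02. Nor did the mean deviation of this list overlap, at -0.17 to -0.01 in infant and 0.03 to 0.13 in fetal arrays.

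Glycolytic genes were lower in 17 of 22 cases, with a median of -0.19, where 54.6% of all genes were lower. PKM, the pyruvate kinase of dividing cells, read 9.24, 9.19, 9.44 and 9.01 in infant arrays, against 10.03, 9.65, 9.69 and 9.22 in fetal arrays. LDHA, lactate dehydrogenase, differed by -0.30 and SLC2A1, a glucose transporter, by -0.47. Dimmer probe sets of SLC2A1 and PKM were higher by 0.12 and 0.04. Against the newborn arrays alone the glycolytic median was -0.05. Subunits of oxidative phosphorylation were lower in 25 of 36 cases, with a median of -0.05, but under quantile normalization 17 were higher and 19 lower, so no direction is given for them.

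Genes of cell division were lower in infant arrays as well. Where 54.6% of all genes were lower, mitosis genes and DNA replication genes each had 27 of 32 members lower and 5 higher. Their medians were -0.19 and -0.16. An unadjusted p under 0.05 was reached by 7 and 4 of them, all lower, where 5.37% of all genes were lower at that p. CDC20, which activates the anaphase-promoting complex, read 7.97, 8.49, 9.30 and 8.07 in infant arrays, against 10.14, 10.11, 10.21 and 8.12 in fetal arrays. Fetal arrays 1 to 3 lay above every infant array, and fetal array 4 lay among the infant arrays. MCM5, a subunit of the replicative helicase, likewise had fetal array 4 within the infant range, at 7.77, 8.19, 8.52 and 7.49 in infant and at 8.94, 9.20, 8.92 and 7.65 in fetal arrays. CCNB1, the mitotic cyclin B1, differed by -0.89 (SE 0.24), and TOP2A, the topoisomerase of dividing cells, by -0.41 (SE 0.12).

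For mitosis the mean deviation was -0.25, -0.12, 0.15 and -0.37 in infant arrays 1 to 4, against 0.28, 0.28, 0.32 and -0.29 in fetal arrays 1 to 4. Without fetal array 4 the mitosis median was -0.30, with 30 of 32 lower and 16 of these at an unadjusted p under 0.05, as were 722 of all 11963 genes in the lower direction. The DNA replication median was then -0.23, with 13 at that p. The mitosis median without infant arrays 1 and 2 was -0.16, with 24 of 32 lower and 2 at that p. CDC20 differed by -1.70 without fetal array 4 (limma adjusted p = 0.0236). The array that was highest for the immediate early list was thus the lowest fetal array for the division lists. Among 15 cell cycle brakes and senescence genes 12 were lower and 3 higher, GAS1 being the highest.

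**Figure D3:**
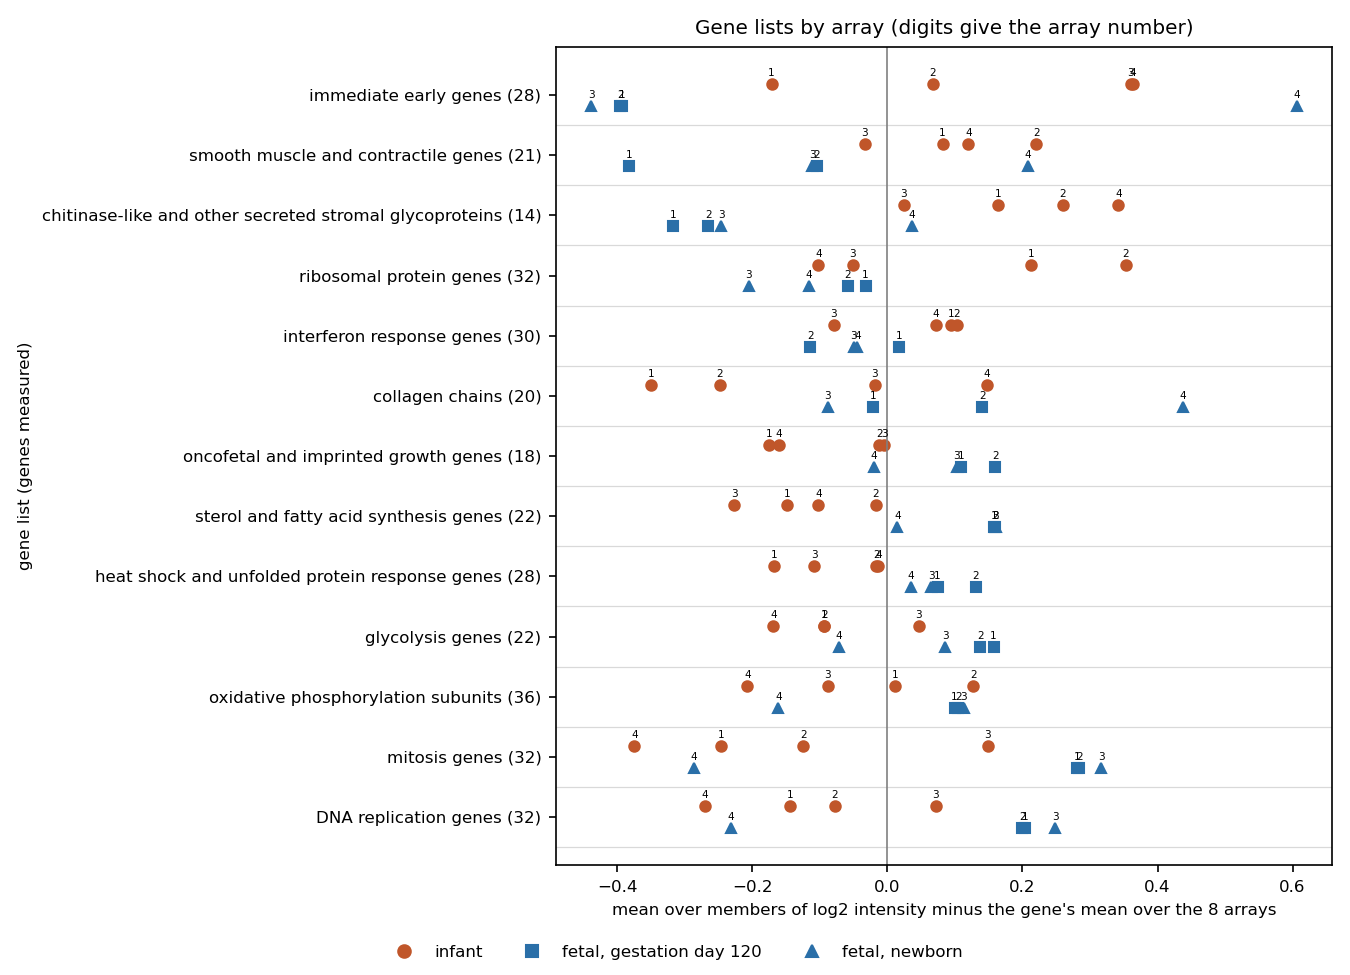
Mean deviation of each gene list from its members' means over the 8 arrays, on the log2 scale, with infant arrays above fetal arrays in each row and the array number beside each point. The infant and fetal points do not overlap for sterol and fatty acid synthesis or for heat shock and unfolded protein response genes, and fetal array 4 lies apart from fetal arrays 1 to 3 for immediate early, collagen, mitosis and DNA replication genes.

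Ribosomal protein genes were higher in infant arrays in 30 of 32 cases, with a median of 0.21, where 45.4% of all genes were higher. But the direction of the list rested on infant arrays 1 and 2. RPS7 read 12.19, 12.34, 11.39 and 11.51 in infant arrays, against 11.12, 11.25, 11.19 and 11.30 in fetal arrays, and RPS14 read 13.11, 13.28, 12.64 and 12.90 in infant arrays, against 12.49, 12.53, 12.21 and 12.63 in fetal arrays. The groups did not overlap for either, and infant arrays 1 and 2 were the highest for both. As a mean deviation the list stood at 0.21 and 0.35 in infant arrays 1 and 2 and -0.05 and -0.10 in arrays 3 and 4, against -0.21 to -0.03 in fetal arrays. Without infant arrays 1 and 2 the count was 20 of 32 and the median 0.02, and under quantile normalization it was 22 of 32 and 0.12. Ribosomal protein genes have many near-identical pseudogene copies, so their probe sets may read more than 1 transcript.

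Interferon response genes were higher in infant arrays in 23 of 30 cases with a median of 0.08, where 45.4% of all genes were higher. In that direction 1 member reached an unadjusted p under 0.05, where 2.23% of all genes were higher at that p. That member was HLA-B, a class I histocompatibility gene, at 12.27, 11.87, 11.77 and 13.14 in infant arrays against 11.88, 11.36, 11.28 and 11.86 in fetal arrays. Its probes can match related class I genes, so which of them it reads is uncertain. Without infant arrays 1 and 2 the interferon list had 18 of 30 higher and a median of 0.02.

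Medians of the lineage and niche lists lay between -0.05 and 0.05. Of 18 osteoblast genes 6 were higher and 12 lower, the same count as in the oncofetal and imprinted list. Of 22 cartilage genes 12 were higher and 10 lower. CHI3L1 was the only cartilage member in the higher direction at an unadjusted p under 0.05. Among 20 adipocyte genes 11 were higher and 9 lower. PPARG, the master regulator of fat cells, read 8.03, 8.62, 8.26 and 8.43 in infant arrays, against 8.38, 7.89, 7.43 and 7.84 in fetal arrays, whereas FABP5, a fatty acid carrier, differed by -0.77 (SE 0.20). CXCL12, the chemokine that holds blood stem cells in marrow, was at 7.96 to 8.21 in infant and 7.74 to 7.97 in fetal arrays, and 7 of 19 niche factors were higher.

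Signalling lists held members in both directions. WNT pathway genes were higher in 11 of 25 cases, BMP and TGF-beta pathway genes in 15 of 35, growth factor receptors and ligands in 14 of 29, and IGF receptors and binding proteins in 10 of 16. TGFB1, the ligand, and BAMBI, a decoy receptor of that family, were each lower by a log2 difference of -0.67. A dimmer probe set of TGFB1 stood at -0.09. In the BMP and TGF-beta list 5 members reached an unadjusted p under 0.05, all lower, where 5.37% of all genes were lower at that p. The other 3 were TGFB2, a ligand, LTBP1, which binds latent TGF-beta, and ID3, a target of BMP signals, at -0.39, -0.50 and -0.49, the first pair chosen after their values were seen. Integrins and focal adhesion linkers were higher in 11 of 26 cases, noncollagen matrix proteins in 11 of 28, matrix proteases and inhibitors in 11 of 22, secreted inflammatory factors in 14 of 26 and detoxifying enzymes under NRF2 in 10 of 21. The counts without infant arrays 1 and 2 were 17 of 22 for matrix proteases and inhibitors, 14 of 25 for WNT pathway genes and 5 of 21 for detoxifying enzymes.

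The share of genes higher in infant arrays also moved with brightness. It was 49.9% of 8446 genes with a mean log2 of up to 8, 33.8% of 2283 genes between 8 and 9, 31.7% of 760 between 9 and 10, 33.5% of 272 between 10 and 11, 42.6% of 108 between 11 and 12, and 70.2% of 94 above 12. Without the ribosomal protein list 61.2% of 67 genes above 12 were higher. Counts at an unadjusted p under 0.05 moved with brightness too. From the dimmest to the brightest of these bands, 232, 235, 114, 44, 12 and 5 genes were lower at that p. In the same order 161, 48, 27, 14, 7 and 10 genes were higher at that p. The part of brightness in the counts of the lists, by direction or at that p, was not tested. Over all genes 267 were higher and 642 lower at an unadjusted p under 0.05, against 331 and 456 under quantile normalization. The arrays did not overlap for 1.07% of genes in the higher and 2.32% in the lower direction.

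**Figure D4:**
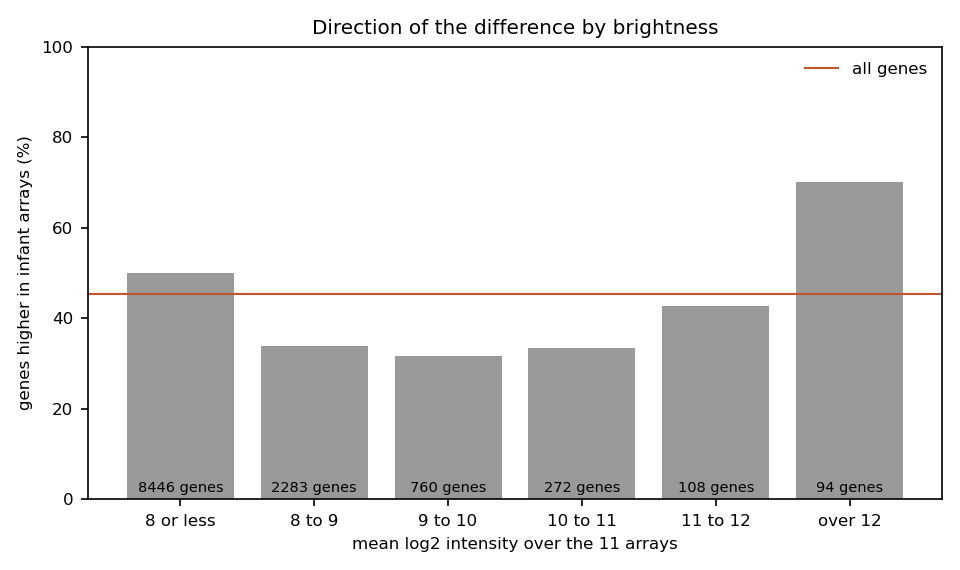
Percentage of genes whose infant mean exceeds the fetal mean, by the gene's mean log2 intensity over the 11 arrays, with the number of genes in each bar and a line at 45.4% for all genes. The share is lowest between 9 and 10, at 31.7%, and highest above 12, at 70.2%.

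The fetal-titled group was then divided by the stage its labels give, with 2 arrays each, in a fit with a mean per stage. No probe set passed between infant and gestation day 120 arrays (0%, with 1348 or 6.07% at an unadjusted p under 0.05), nor between infant and newborn arrays (0%, with 801 or 3.61%), nor between newborn and gestation day 120 arrays (0%, with 402 or 1.81%). The comparisons of infant arrays with the 2 stages share the infant arrays, so their values are given side by side and not as independent results. CHI3L1 averaged 9.47 at gestation day 120, 9.92 in newborn, 11.03 in infant and 12.59 in adult arrays. PTGDS averaged 8.96, 9.81, 11.36 and 11.90 in the same order, and SULF1 averaged 7.67, 8.01, 8.82 and 9.62. For these 3 secreted products each later stage had the higher mean. But for PTGDS and SULF1 the 2 newborn arrays differed from each other by more than their mean differed from gestation day 120. For CHI3L1 the newborn mean was higher than that of gestation day 120 by 0.45 (SE 0.23). The 2 gestation day 120 arrays lay further apart than that, at 9.16 and 9.77.

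Other genes had a different order of stages. GATA6 averaged 7.81 at gestation day 120, 7.82 in newborn, 7.02 in infant and 7.05 in adult arrays, and MICAL2 averaged 9.51, 9.53, 8.44 and 8.32. In both, the 2 stages of the fetal-titled group lay within 0.03 of each other. FOSL2 averaged 8.21 at gestation day 120, 9.21 in newborn, 7.87 in infant and 7.92 in adult arrays, so that the newborn arrays were highest. FOS averaged 9.63, 9.90, 11.61 and 10.65 and JUN averaged 9.05, 9.04, 10.05 and 9.27 in the order from gestation day 120 to adult, with the highest mean in infant arrays. Adult arrays 1 to 3 read 10.98, 11.12 and 9.84 for FOS and 9.90, 9.78 and 8.13 for JUN. For both genes adult array 3 thus lowered the adult mean. CDC20 averaged 10.12 at gestation day 120 and 9.17 in newborn arrays, but the newborn arrays read 10.21 and 8.12.

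ELOVL6 averaged 8.46, 7.76, 7.52 and 7.17 and PDGFRA, a receptor for platelet-derived growth factor, averaged 10.10, 9.50, 9.40 and 8.85 from gestation day 120 to adult. With the newborn arrays left out of the data, ELOVL6 passed at -0.94 and CHI3L1 at 1.56 (limma adjusted p = 0.0355 for both), and so did 2 genes chosen after their values were seen, NR4A3 at 1.27 and the cadherin gene CDH6 at -1.03. With the gestation day 120 arrays left out, 0 probe sets passed, with 702 at an unadjusted p under 0.05. Immediate early genes were higher in infant arrays in 23 of 28 cases against gestation day 120 (median 0.43) and in 16 of 28 against newborn arrays (median 0.05). Mitosis genes had medians of -0.30 and -0.13, and sterol and fatty acid synthesis genes -0.20 and -0.20, in the same order.

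**Figure D5:**
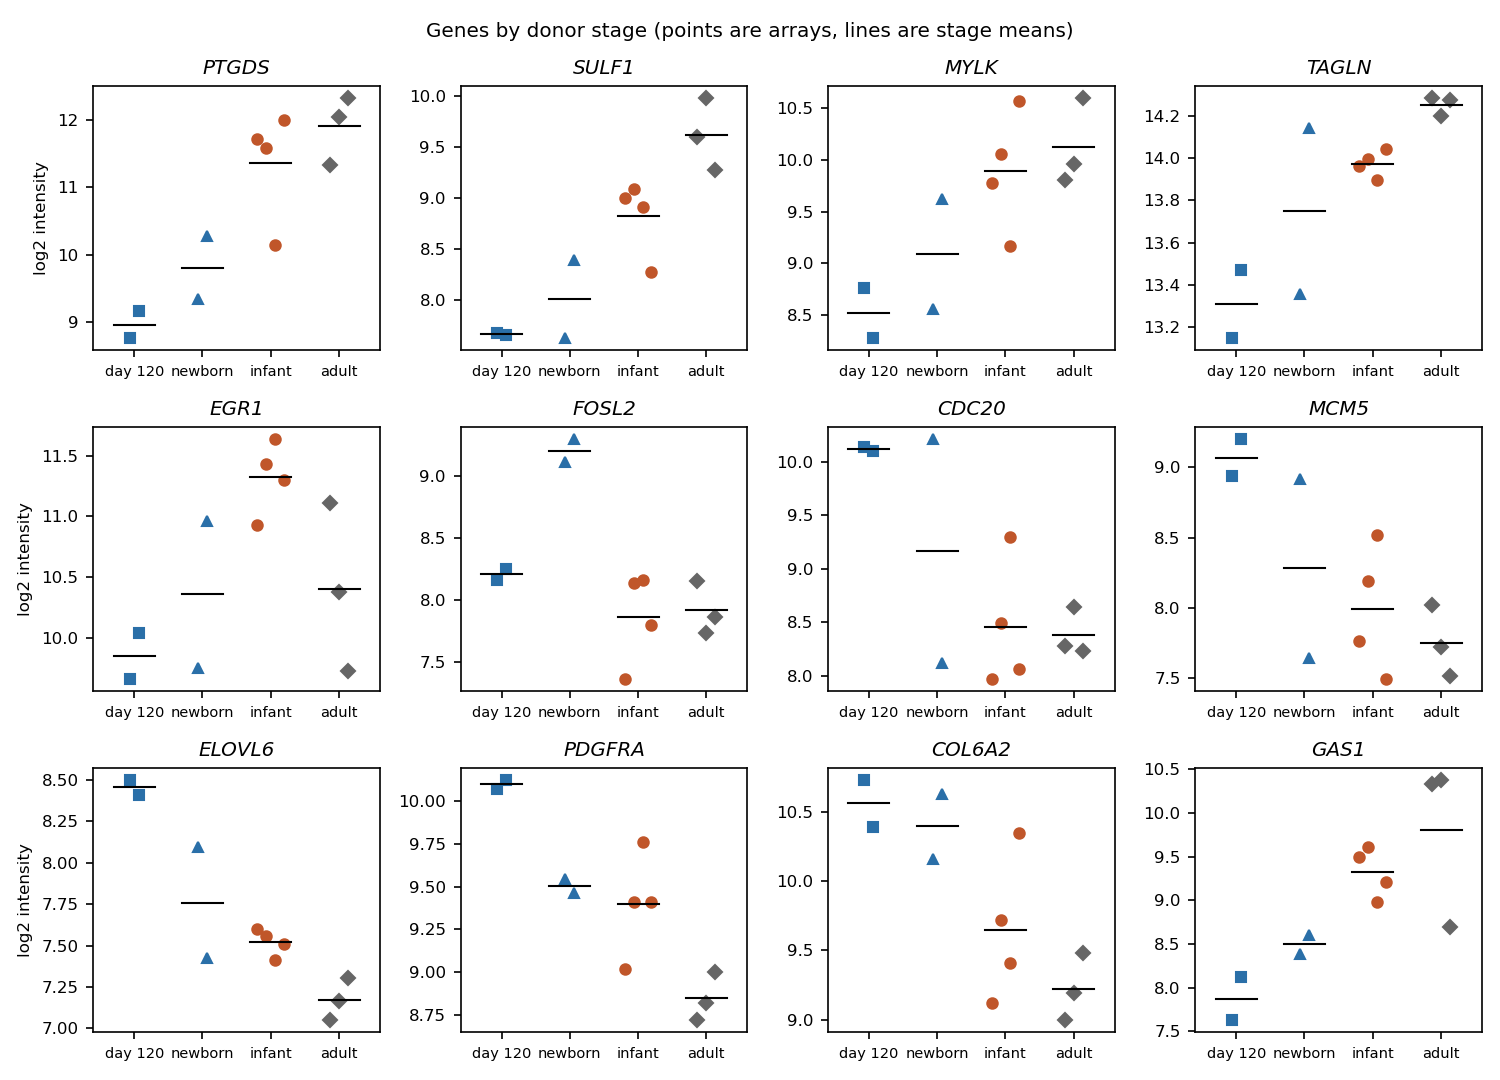
Log2 intensity by donor stage for 12 genes, from gestation day 120 (2 arrays) through newborn (2) and infant (4) to adult (3), with points for arrays and lines for stage means. PTGDS and SULF1 have higher means at each later stage, FOSL2 is highest in newborn arrays, and the 2 newborn arrays lie far apart for EGR1, CDC20 and MCM5.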

How the data were processed

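RNA of 11 cultures was analysed on human arrays. The authors deposited an intensity per probe set, made with RMA per the submitters' processing notes. That method adjusts background, normalises arrays to each other and combines the probes of a set, which lessens differences in total brightness. Some array-wide differences remained, with highest intensities from 27962 in fetal array 3 to 36519 in infant array 2. Quantile normalization of the deposited values moved the share of genes higher in infant arrays from 45.4% to 49.3%. The intensity was on a linear scale, so log2 was taken. Probe-level signals were not used here. Gene names came from the platform annotation. Of 22215 probe sets 19065 had 1 symbol, 1043 several and 2107 none, and genes were named only from those with 1.

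Limma 3.58.1 in R 4.3.3 fitted a mean per group over all 11 arrays (lmFit and eBayes), tested two-sided, with Benjamini-Hochberg adjustment over all probe sets and a threshold of 0.05. Adjusted p-values are from these fits, and the alternatives are given in the closing section. For lists, each of 11963 genes was read by its brightest probe set. There were 37 lists with 943 entries, of which 830 were measured.

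The members, lists and tests were chosen with earlier results of these data known. Named genes were the 12 of smallest p in each direction among those without overlap, up to 3 members of each list at an unadjusted p under 0.05, ENG, THY1, NT5E, CD44, PTPRC and CD14, and the FOS, JUN and EGR families. Genes named beyond that rule were picked with their values in view. The fit was tested on simulated data. No detection call was used, and the number of arrays limits the precision.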

Additional observations from a re-analysis of the deposited data

Results flagged for a closer look

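Among named genes, 15 groups of 4 arrays held an array that stood apart from the other 3 by Dixon's test. With 198 groups tested, chance would give about 9.9, and 8 of the 15 concern fetal array 4, from a newborn. In that array FERMT2 read 8.55, against 8.07 to 8.10 in the other fetal arrays. SULF1 read 8.39 against 7.62 to 7.68, and DCN read 13.50 against 12.68 to 12.74. FOSB read 8.98 against 7.30 to 7.50, and JUNB read 9.87 against 8.01 to 8.21. It was low for CDC20 at 8.12 against 10.11 to 10.21, for NSDHL at 7.65 against 8.49 to 8.65, and for UQCRC1, a subunit of respiratory complex III, at 10.49 against 10.97 to 11.06. In fetal array 1, SGCE read 8.17 against 8.50 to 8.54.

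Among infant arrays, CHI3L1 stood at 11.44 in array 2, against 10.89 to 10.90 in the others. HOXD4 read 7.32 in the same array against 7.64. ITIH3 read 9.43 in array 4 against 8.14 to 8.35. DKK3 read 9.93 in array 3 against 9.52 to 9.54, and VCAN read 11.05 there against 11.33 to 11.36. PTPRC read 7.14 in array 1 against 7.80 to 7.89. The causes were not tested.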

How the results depend on the processing

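The count of probe sets at an adjusted p under 0.05 was 0 as reported, in the fit of 8 arrays alone, with quantile normalization, with a trended and robust variance prior, against newborn arrays only and without infant arrays 1 and 2. It was 1 with array weights and 1 among probe sets above the median, CHI3L1 in both, and 5 against gestation day 120 arrays only. Leaving out each array in turn gave 0 to 21, with 4 without infant array 3 (CHI3L1, PTGDS, HTRA1 and TPP1) and 21 without fetal array 4, of which 10 were higher. The exact permutation test cannot go below 0.0286 with 4 against 4 arrays, and 0 passed after adjustment. For the stage fit, leaving out each array, chosen after the data were seen, gave 0 to 5 between infant and gestation day 120 arrays (3 without infant array 3, 2 without fetal array 2, 5 without fetal array 3, 5 without fetal array 4), 0 between infant and newborn arrays, and 0 to 2 between newborn and gestation day 120 arrays (2 without fetal array 3). With the replicate block 10 passed, including FOS, JUN, CHI3L1, PTGDS and MICAL2, with 7 of the 10 higher. Deviations of arrays with the same number correlated at 0.116, 0.008, 0.041 and 0.275, against -0.163 to 0.0793 for unlike numbers. No label states a pairing, and these correlations cannot decide whether the numbers pair the arrays. Not every array correlated best with its own number. The unadjusted count of 1527 was 702 against newborn arrays only and 947 among probe sets above the median.

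Over all alternatives the named values kept their direction and side of the threshold in 1737 cases. They passed the threshold in 22 and turned sign in 12, each from a small difference. Part of the 1737 was fixed in advance, since some alternatives reuse the same difference of group means. These were the fit without adult arrays, the replicate block and the trended and robust prior. The probe sets above the median and the permutation test reuse it too. Direction could change only in the other alternatives. THY1 turned to 0.12 and PTPRC to 0.0126 without infant arrays 1 and 2, CD14 to 0.0325 and JUND to -0.12 against newborn arrays only. ENG turned to 0.0242 with quantile normalization and 0.19 without infant arrays 1 and 2, and lay between -0.1677 and 0.0428 with each array left out in turn. EGR3 turned to 0.0298 with array weights, 0.0566 against gestation day 120 arrays only and 0.0316 without infant arrays 1 and 2, and lay between -0.1356 and 0.0497 with each array left out in turn. Over these alternatives the limma adjusted p of the genes given above as passing with arrays left out lay between 0.0132 and 0.546 for CHI3L1. Its lowest value for FOS was 0.0039, from the replicate block, where FOS without fetal array 4 had 0.0132. The lowest was 0.0236 for FERMT2, CDC20, ELOVL6 and NSDHL, 0.0306 for PTGDS, 0.0345 for TAGLN, 0.0382 for FZD2 and 0.0386 for SULF1. The highest was 1 for each of these 9 genes, FOS included, against newborn arrays only. The causes were not tested. With no detection call, dim probe sets cannot be told from background.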
